A study of Rattus norvegicus with 30 samples.

Results

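The 7 microRNAs (miRNAs) rno-miR-153, rno-miR-489, rno-miR-448, rno-miR-883, rno-miR-298, rno-miR-32 and rno-miR-878 had dim spots on arrays of rat liver and higher levels 24 h after partial hepatectomy than at 0 h. They were chosen by that measured difference, out of 388 miRNA names on the hepatectomy chips, and all 7 were also among the 680 names on the sham chips. Their 24 h and 0 h values are therefore given as a description, with no p value, and calls in that contrast support nothing about them. The animals were male Wistar rats, from which 70% of the liver was removed (partial hepatectomy) or whose abdomen was opened without removal (sham laparotomy). Hepatectomy groups were 0, 2, 6, 12, 24 and 48 h and 5 d, sham groups were 12, 24 and 48 h, and each of the 10 groups held 3 arrays of biological replicates, 30 in all. The labels give no ages, no genetic change and no other agent, and whole liver tissue was profiled. Fewer cells of a type and less RNA per cell therefore cannot be told apart.

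A miRNA is cut from a hairpin precursor into a short strand that guides Argonaute proteins to messenger RNAs, mainly through pairing of its seed, bases 2 to 8. After partial hepatectomy the remaining hepatocytes of the rat re-enter the cell cycle and the liver regains its mass. The dominant miRNA of hepatocytes is miR-122, and none of the 7 is known as a hepatocyte miRNA. On a microarray every probe also gives some light without its target, so a dim miRNA has to be read against the background of its own array.

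The mature sequences show that the 7 are not a family. They were taken from RefSeq (build GRCr8), matched all 7 names and gave both arms for 6 of them. The chip names do not say which arm was probed, so both arms are printed, 5′ to 3′, with the seed in capitals.
rno-miR-153-5p: gUCAUUUUugugauguugcagcu
rno-miR-153-3p: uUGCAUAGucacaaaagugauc
rno-miR-489-3p: aUGACAUCacauauauggcagc
rno-miR-489-5p: uGUCGUAUgcgugaugacacguuc
rno-miR-448-5p: aACAUCCUgcauagugcugcca
rno-miR-448-3p: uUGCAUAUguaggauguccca
rno-miR-883-3p: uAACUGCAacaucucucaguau
rno-miR-883-5p: uGCUGAGAgaaguagcaguuacu
rno-miR-298-3p: aGGAACUAgccuucucucugcu
rno-miR-298-5p: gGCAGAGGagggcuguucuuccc
rno-miR-32-3p: gCAAUUUAgugugugugauauu
rno-miR-32-5p: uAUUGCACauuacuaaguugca
rno-miR-878: gCAUGACAccauacuggguaga
No seed was shared between any pair of the 7. The closest were miR-153-3p and miR-448-3p, which share the first 6 seed bases, 2 to 7, and differ at the last. The median GC content of these 13 arms was 42.9%, against 47.8% over 694 mature rat sequences in the same table, and both sets had a median length of 22 bases.

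The genes lie at separate places in the genome, except for a pair on the X chromosome. miR-153, a brain-enriched miRNA, lies at chr6:144306594-144306680 (GRCr8, plus strand), inside Ptprn2, which encodes a membrane protein of secretory granules. miR-489, which in mouse keeps muscle satellite cells quiescent, lies at chr4:32648039-32648144 (minus strand) inside the calcitonin receptor gene Calcr, beside miR-653. miR-448 lies at chrX:115641955-115642066 (plus strand) inside the serotonin receptor gene Htr2c. miR-298, which in mouse represses the secretase Bace1, lies at chr3:183470522-183470603 (minus strand) beside miR-296. miR-32, which in human cells represses the apoptosis gene BIM, lies at chr5:76391285-76391354 (minus strand) inside Tmem245. miR-883 (chrX:150451962-150452038) and miR-878 (chrX:150474253-150474329), both on the minus strand, are 22215 bases apart in a cluster known for expression in rodent testis, and each has 12 other miRNA genes within 100000 bases. The probes' build, not given in the sources used here, may differ, and the positions are those of the sequence table.

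miR-32-5p is the arm with relatives among other rat miRNAs. Its seed is shared by 4 of them, shown here because they separate the seed family from the member that was chosen.
rno-miR-92b-3p: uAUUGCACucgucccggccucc
rno-miR-25-3p: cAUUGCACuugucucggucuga
rno-miR-92a-3p: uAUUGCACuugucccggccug
rno-miR-363-3p: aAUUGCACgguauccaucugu
miR-25 and miR-92a belong to the proliferation-linked miR-106b-25 and miR-17-92 clusters. On the normalized log2 scale, miR-25 differed by -0.20 between 24 h and 0 h, miR-92a by -0.22, miR-92b by -0.15 and miR-363 by 0.09. None of these 4 passed the test (limma adjusted p 0.384 to 0.778), and their median of -0.18 stood below the median of 0.07 over all 388 names. miR-32 itself was at 0.50 in the contrast that chose it.

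The spots of the 7 were first set against the background of each array. The authors' background-subtracted median per miRNA equals the median raw spot minus a constant for each array. Raw intensity has no unit beyond the scanner's, and a miRNA had 15 spots on each hepatectomy array and 22 on each sham array. A spot counts as high here when it exceeded the array's median spot, and as above background when it exceeded the constant.

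miR-153 had median raw intensities of 1112, 1088 and 528 on the 0 h arrays and 1496, 1104 and 1200 on the 24 h arrays, so the raw groups overlapped. After subtraction of the constant it stood at 104, 16 and 64 at 0 h and at 536, 264 and 288 at 24 h. These values did not overlap, as the choice of members makes likely. Against the array's own median spot it stood at 32, -32 and -16 at 0 h and at 256, 120 and 176 at 24 h. At 0 h the median miR-153 spot thus lay near the array median, and at 24 h it lay above the array median on all 3 arrays. Of its 15 spots at 24 h, 11, 7 and 8 exceeded the array's 75th percentile, so many remained within the bulk of the array. The SD among its 15 spots on an array was 72.4 to 86.5 at 0 h, about the size of the excess over the constant, and 135 to 204 at 24 h.

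miR-878 was the brightest of the 7. Its median spot stood 168, 96 and 96 above the constant at 0 h and 720, 384 and 364 above it at 24 h. It was also high at 12 h, with 312, 548 and 368, and low on replicate 2 at 48 h (32) and replicate 3 at 5 d (24). Of its spots over all hepatectomy arrays, 79.2% exceeded the array median and 90.1% the constant, the highest shares among the 7.

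miR-298 and miR-448 were the dimmest. miR-298 stood 64, -16 and 64 above the constant at 0 h and 384, 232 and 136 above it at 24 h. On replicate 3 at 24 h its 15 spots had an SD of 1428 around a median of 1048, far above the SD of 155.25 and 145.73 on the other 24 h arrays. miR-448 stood at 48 on each 0 h array and between 136 and 368 at 24 h. Replicate 2 at 24 h was the sole array of that time on which it lay below the array median, by 8 intensity units. Over all 21 hepatectomy arrays, 45.5% of miR-298 spots and 46.7% of miR-448 spots exceeded the array median, so these 2 did not stand above the middle of the chip in general.

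miR-489 stood 0, 4 and -24 above the array median at 0 h and 168, 112 and 96 above it at 24 h. Over the constant, miR-883 had 88, 72 and 40 at 0 h and 544, 312 and 200 at 24 h. miR-32 had 88, 96 and 112 at 0 h and 472, 232 and 248 at 24 h. For each of these 3 the 24 h arrays lay above the 0 h arrays, as the choice of members makes likely, and the highest array was replicate 1.

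Over the 7 together, 49.4% of spots at 0 h exceeded the array median, 77.4% the constant and 13.7% the array's 75th percentile. At 24 h the shares were 75.4%, 94.9% and 48.9%. At 0 h the members' median spots exceeded the constant in 20 of 21 miRNA and array pairs and the array median in 10 of 21. At 24 h the numbers were 21 and 20 of 21. The median excess over the constant was 64 at 0 h, ranging from -16 to 168, and 288 at 24 h, ranging from 136 to 720. A member's median spot was 0.985 to 1.24 times the constant at 0 h and 1.15 to 1.75 times at 24 h.

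At the times that the choice did not use, the share of spots above the array median and the median excess lay between those of 0 h and 24 h, and the share above the constant did not. That share was 67.8% at 2 h, 77.0% at 6 h and 96.8% at 12 h. Over all spots of an array it was 52.06% to 68.11% at 2 h, 45.91% to 81.35% at 6 h and 81.31% to 89.29% at 12 h. Of members' spots, 53.2% exceeded the array median at 2 h and 60.1% at 6 h. The share was highest at 12 h, with 65.1%, and then 59.6% (48 h) and 63.4% (5 d). The median excess over the constant was 80 after 2 h, 152 after 6 h, 248 after 12 h and 168 after 5 d, and at 48 h the excess ranged from -16 to 408. At 12 h, as at 24 h, all 21 pairs exceeded the constant, while at 6 h the number was 16. On replicate 2 at 6 h the median of all spots lay 8 below the constant, and the members' median spots ranged from 48 below the constant to 64 above it. In sham liver at 12, 24 and 48 h, 54.6%, 52.6% and 50.9% of members' spots exceeded the array median, and the median excess over the constant was 32, 56 and 32.

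**Figure D1:**
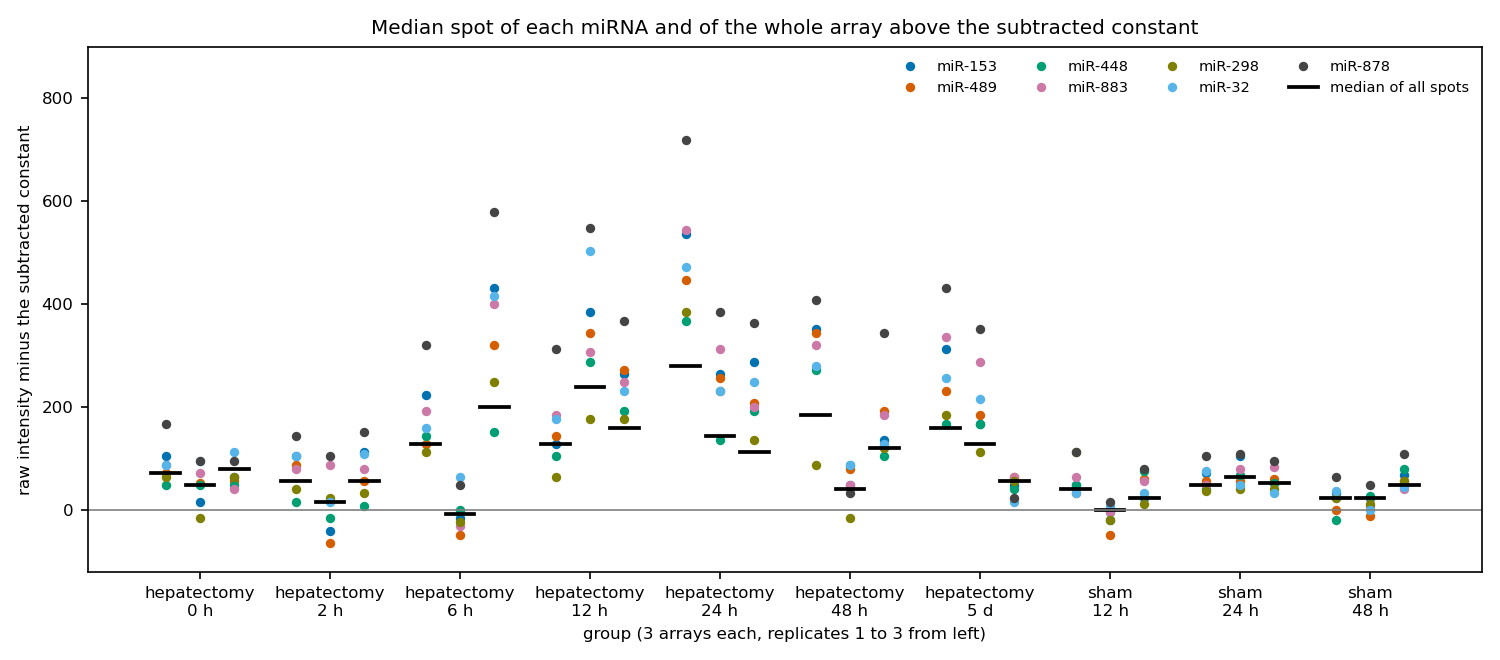
Raw intensity of the median spot minus the authors' constant (vertical axis, scanner units) for each of the 7 miRNAs (coloured points) on each of the 30 arrays, grouped by operation and time. Black bars give the median of all spots of the array, which itself stood 112 to 280 above the constant at 24 h and 48 to 80 above it at 0 h.

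The whole array moved along with the 7. The median of all spots stood 280, 144 and 112 above the constant on the 24 h arrays and 72, 48 and 80 above it on the 0 h arrays, and 77.5% to 95.2% of all spots exceeded the constant at 24 h, against 65.0% to 78.3% at 0 h. Ordered by the members' median excess over the constant, the highest of the 21 hepatectomy arrays were replicate 1 at 24 h (472), replicate 3 at 6 h (400), replicate 2 at 12 h (344) and replicate 1 at 48 h (320). The same 4 arrays had the largest gaps between array median and constant, of 280, 200, 240 and 184. Against the array median, replicate 3 at 6 h held the highest member median (200) and replicate 1 at 24 h came next. The part of the array background in the members' differences was not tested.

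The 3 arrays at 24 h also belonged to the brighter of 2 classes of hepatectomy chip. Median raw intensity was 976 to 1328 on 13 arrays and 544 to 608 on 8. All 3 arrays at 24 h and 2 of 3 at 0 h were bright. The labels do not say what separates the classes. The median of a sham array was at most 408.

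For scale, the median miR-122 spot exceeded the constant on every array, by amounts that varied widely. Its lowest excess over the constant was 640, on replicate 2 at 6 h, where it was 1.60 times the constant. The excess ranged from 5746 to 43442 at 0 h and from 1009 to 11339 at 24 h. On replicate 3 at 24 h, 11 of 15 miR-122 spots exceeded the array median. miR-192, a hepatocyte and epithelial miRNA, stood 1009 to 5289 above the constant at 0 h and 512 to 1385 at 24 h.

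Brightness can also be read as a position among all names of the same array, which does not depend on the constant. The members' median percentile was 62.9 at 0 h (range 15.2 to 83.8) and 84.0 at 24 h (50.3 to 96.7). Of the other hepatectomy times, 2 h had 67.3, 6 h had 71.4, 12 h had 76.0, 48 h had 74.0 and 5 d had 65.2. The sham times of 12, 24 and 48 h had 68.2, 65.4 and 63.4. A percentile here counts the names at or below a value, ties included, so a median spot equal to the array median scored above 50. At 0 h, miR-489 on replicate 1 and miR-448 on replicate 2 were equal to it and scored 58.8 and 62.9. The word dim therefore holds for intensity, since the members lay close to the constant. By rank, the members as a group lay around the array median at 0 h and in sham liver. miR-878 was an exception and exceeded the array median on every 0 h and sham array. Its percentiles were 65.98 to 83.76 at 0 h and 77.35 to 89.12 on the sham arrays. miR-32 exceeded the array median on every 0 h array (64.69 to 80.67) and not on every sham array. At 24 h, 20 of 21 miRNA and array pairs exceeded the array median.

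**Figure D2:**
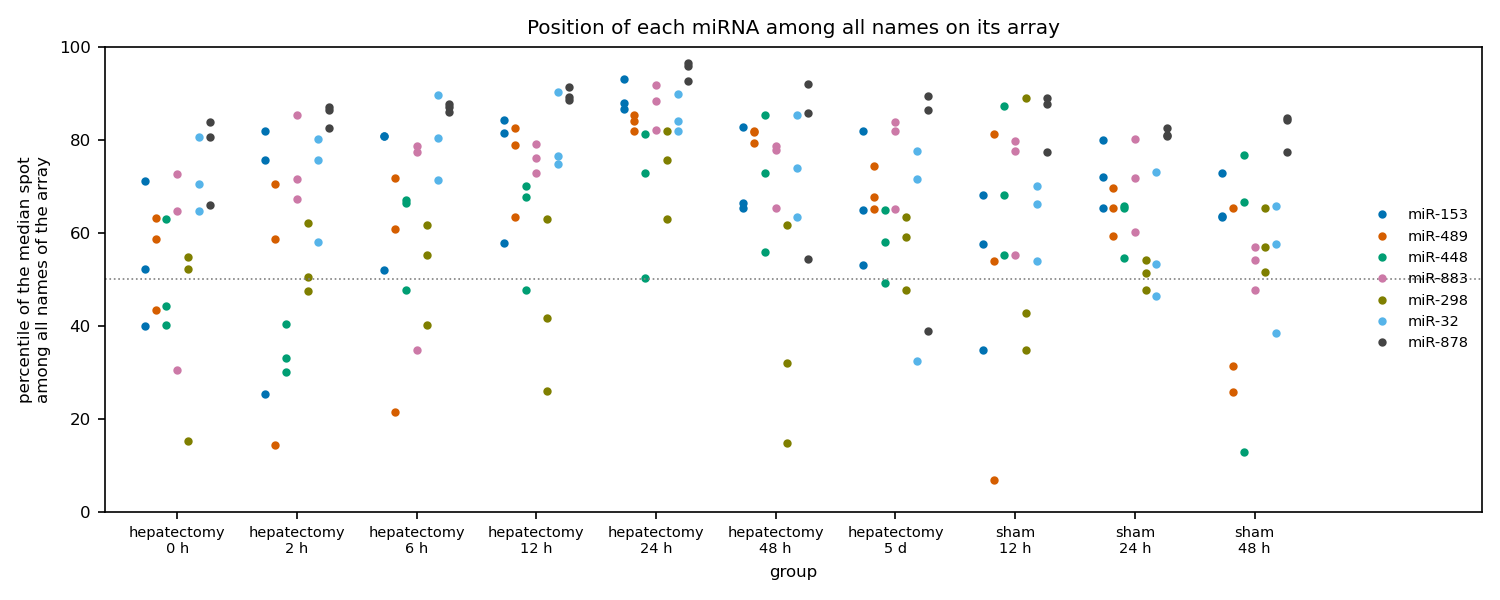
Percentile of each miRNA's median spot among all names of its array (vertical axis), by group, with 3 arrays per group and the dotted line at 50. Ties count toward the percentile, so a median spot equal to the array median lies above that line. The 24 h hepatectomy points lie between 50.3 and 96.7, and the 0 h points between 15.2 and 83.8.

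After normexp background correction, log2 transformation and quantile normalization, levels of all 388 names had a median of 7.73 and a 95th percentile of 9.01, and miR-122 was highest at 12.77. Mean levels of the members over the 21 hepatectomy arrays ran from 7.76 for miR-448 to 8.46 for miR-878. Counted from the lowest of 388, miR-448 ranked 214 and miR-298 220, and the others ranked 281 to 340. These log2 levels are comparable between arrays for a miRNA, not between miRNAs, since probes differ in efficiency.

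miR-153 had log2 levels of 7.87, 7.67 and 7.71 at 0 h, 8.01, 7.80 and 8.08 at 2 h, and 8.12, 7.69 and 8.39 at 6 h. It had 7.86, 8.23 and 8.32 at 12 h, 8.79, 8.65 and 8.41 at 24 h, 8.22, 7.76 and 8.01 at 48 h, and 8.34, 7.96 and 7.95 at 5 d. All 3 arrays at 24 h exceeded each of the 18 other arrays. The 24 h mean of 8.62 ± 0.19 (SD, n = 3) stood 0.48 above the next time, 12 h (8.13 ± 0.24), a gap larger than either SD. miR-153 was the sole member for which no array of another time reached the lowest 24 h array. The 24 h arrays also chose the members, and the share of all names with such a separation is not given here. Nothing is read from it.

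miR-489 had log2 levels of 7.73, 7.66 and 7.54 at 0 h, 7.99, 8.11 and 8.31 at 12 h, 8.41, 8.34 and 8.19 at 24 h, and 8.18, 8.24 and 8.31 at 48 h. Its levels at 2 and 6 h ran from 7.41 to 8.16, and those at 5 d from 7.83 to 8.21. The means at 24 h (8.31 ± 0.11) and 48 h (8.24 ± 0.07) differed by 0.07, less than their spread, and 4 arrays of other times reached the lowest 24 h array.

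miR-878 had log2 levels of 8.24, 8.19 and 7.81 at 0 h, 8.71, 8.66 and 8.75 at 12 h, and 9.19, 8.74 and 8.61 at 24 h. Its later levels were 8.46, 7.84 and 8.87 at 48 h and 8.64, 8.88 and 7.77 at 5 d. The 24 h mean (8.84 ± 0.30) and the 12 h mean (8.71 ± 0.05) differed by less than the larger SD, and 7 of 18 other arrays reached the lowest 24 h array. The arrays of 48 h (SD 0.52) and 5 d (SD 0.59) spread from 7.77 to 8.88.

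miR-883, the neighbour of miR-878, had a mean level of 7.82 ± 0.24 at 0 h, where its lowest array was at 7.54, and levels of 8.62, 8.76 and 8.17 at 24 h. Its 24 h mean of 8.52 ± 0.31 stood 0.30 above 12 h, within the larger SD of 0.31, and 4 other arrays reached its lowest 24 h array. Its arrays at 5 d (8.56, 8.41 and 7.68) had replicate 3 lowest, as for every member but miR-298. That array was the sole bright array at 5 d.

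miR-448 had 7.51, 7.58 and 7.39 at 0 h and 8.23, 7.95 and 8.11 at 24 h, with 48 h next at 7.86 ± 0.17. miR-32 had 7.82, 7.89 and 8.07 at 0 h and 8.53, 8.42 and 8.33 at 24 h, with 6 h next at 8.19 ± 0.15. miR-298 had 7.63, 7.35 and 7.73 at 0 h and 8.17, 8.09 and 8.02 at 24 h, with 5 d next at 7.89 ± 0.17. The gaps to the next time were 0.23, 0.23 and 0.20, each larger than the larger SD of the 2 times compared. Of 18 other arrays, 2 reached the lowest 24 h array for miR-448, 3 for miR-32 and 1 for miR-298.

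The order of times was alike at its ends and differed in between. For all 7 the mean was lowest at 0 h and highest at 24 h, which the choice of members made likely. The next highest time was 12 h for miR-153, miR-883 and miR-878, 48 h for miR-489 and miR-448, 6 h for miR-32 and 5 d for miR-298. The 2 h mean was the next lowest for miR-153, miR-489, miR-448, miR-32 and miR-878. miR-298 was unlike the rest at 12 h and 48 h, where its means of 7.67 and 7.62 lay near its 0 h mean of 7.57.

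**Figure D3:**
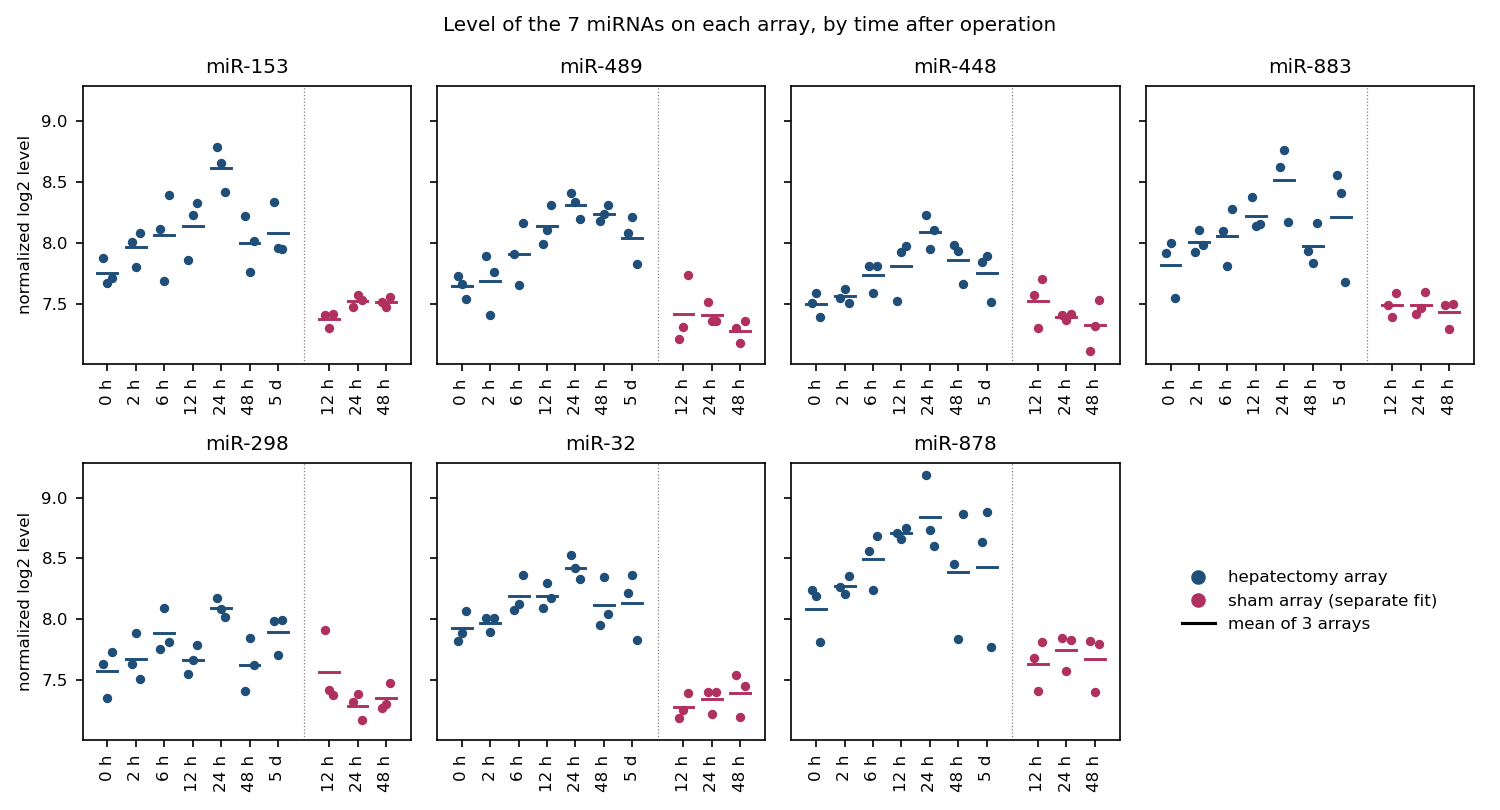
Normalized log2 level (vertical axis) of each miRNA on every array, with hepatectomy times in blue and sham times in red, points for arrays and bars for means of 3. Sham levels come from a separate chip layout and fit, so blue and red heights are not comparable. The 24 h mean is the highest hepatectomy mean in all 7 panels.

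The difference between 24 h and 0 h that chose the members was 0.87 (log2, SE 0.18) for miR-153, 0.76 (SE 0.26) for miR-878, 0.70 (SE 0.21) for miR-883 and 0.67 (SE 0.16) for miR-489. It was 0.60 (SE 0.15) for miR-448, 0.52 (SE 0.15) for miR-298 and 0.50 (SE 0.15) for miR-32. Their median of 0.67 compares with 0.07 over all names. In limma with Benjamini-Hochberg adjustment, 11 of 388 names were higher (2.84%) and 19 lower at an adjusted p under 0.05, with 105 at an unadjusted p under 0.05, and 6 of the 7 members were among the 11, all but miR-878. Since the same values chose them, nothing is read from that count. Just inside the threshold stood miR-743b (0.58), miR-380 (0.48), miR-466c (0.69) and miR-142-5p (0.49), and just outside miR-376c (0.39), miR-204* (0.41), miR-759 (0.75) and miR-628 (0.54).

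That difference kept its sign for each member in all 12 other ways of processing and varied in size. It ran from 0.20 to 0.31 with no background correction, from 0.77 to 1.13 with no normalization, and from 0.88 to 2.08 with the authors' background-subtracted medians. In the last of these, values under 1 were set to 1, as for miR-298 on replicate 2 at 0 h (-16 against the constant). On the 13 bright arrays alone the difference ran from 0.55 to 0.85. Of all names called higher, members were 0 of 0 with no normalization, 0 of 1 with the background-subtracted medians, 0 of 2 with the median of spots in place of the mean and 0 of 1 on the bright arrays. They were 1 of 4 with the authors' processed values, 1 of 1 with 75th percentile centring, 3 of 5 with median centring and 7 of 46 with array weights. The split of all calls moved too, from 11 higher and 19 lower to 5 and 14 with median centring and to 1 and 14 with 75th percentile centring. Without replicate 1 at 24 h, or without replicate 3 at 0 h, 1 name was called higher, and it was a member. These counts come from the contrast that chose the members, and nothing is read from them.

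**Figure D4:**
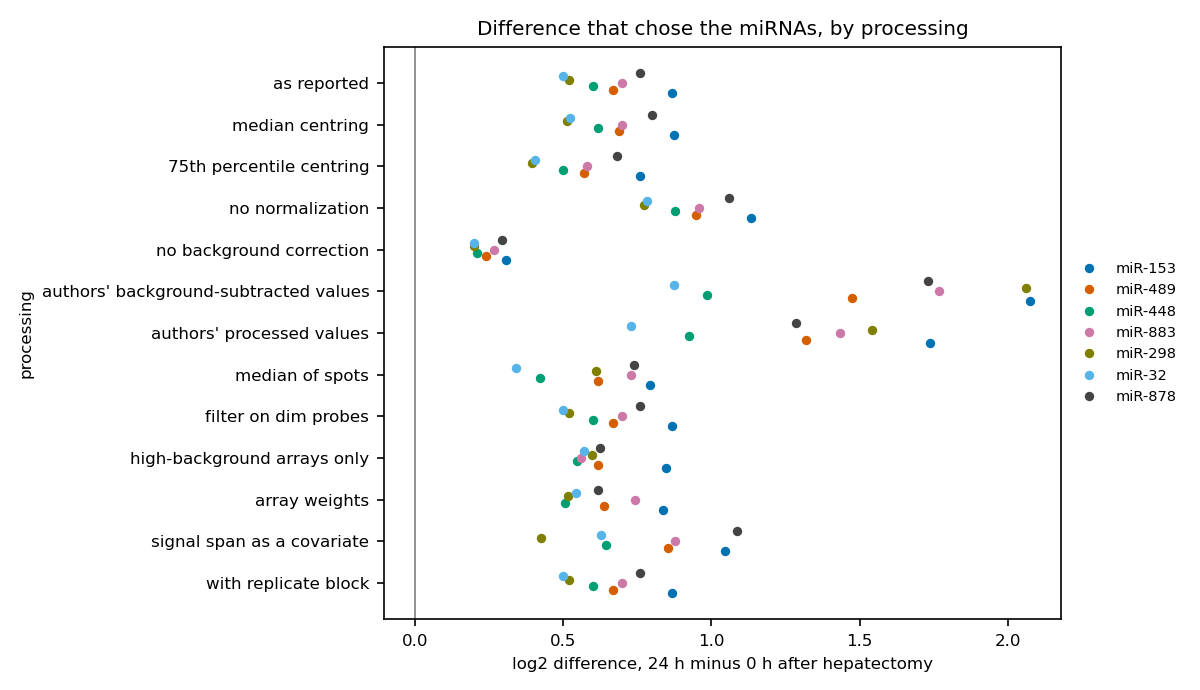
Log2 difference between 24 h and 0 h after hepatectomy (horizontal axis) for the 7 miRNAs under each way of processing (rows). All points lie above 0, from 0.20 with no background correction to 2.08 with the authors' background-subtracted values.

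Among the 5 hepatectomy times that the choice did not use, no member passed a test. limma's moderated F test over 2, 6, 12 and 48 h and 5 d called 0 of 388 names (0%) at an adjusted p under 0.05, with 15 at an unadjusted p under 0.05. The member nearest to a call was miR-489 (unadjusted p = 0.0194, limma adjusted p = 0.979). Its adjusted p stayed between 0.0805 and 0.999 over 12 other settings.

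At 12 h, compared with 2 and 6 h together, 6 of 7 members had positive differences. The median was 0.16 on the log2 scale, ranging from -0.12 for miR-298 to 0.34 for miR-489, beside 0.01 over all names. limma's calls numbered 0 of 388 (0%), beside 22 names whose unadjusted p was under 0.05. The median standard error of a single name's difference was 0.166.

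At 48 h, compared with the same 2 and 6 h arrays, miR-489 differed by 0.44 (95% confidence interval 0.16 to 0.73, limma adjusted p = 0.305). It was the largest difference among the members. The 3 arrays at 48 h lay above the 6 arrays at 2 and 6 h (7.41 to 8.16) by a narrow margin. The lowest at 48 h was 8.176 and the highest at 6 h was 8.165. The share of all names with such a separation is not given here. The other 6 members ranged from -0.16 to 0.21, and the median of the 7 was 0.00, beside 0.02 over all names. limma's calls numbered 0 of 388 (0%), beside 31 names whose unadjusted p was under 0.05. With no background correction the miR-489 difference was 0.15, and with the authors' background-subtracted medians it was 1.37. In the latter setting, values under 1 were set to 1 before the log2 transform. That held for miR-489 on replicate 2 at 2 h (-64 against the constant) and on replicate 2 at 6 h (-48).

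At 5 d all 7 members had positive differences from the same 2 and 6 h arrays, from 0.05 for miR-878 to 0.24 for miR-489, with a median of 0.10 beside 0.00 over all names. limma's calls numbered 0 of 388 (0%), beside 19 names whose unadjusted p was under 0.05. On the bright arrays alone the median was -0.14, with 1 bright array left at 5 d. These 3 comparisons share the 2 and 6 h arrays and are not independent.

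Surgery without removal of liver was covered by the sham arrays, on which no member passed a test either. miR-153 had sham levels of 7.41, 7.30 and 7.42 at 12 h, 7.47, 7.57 and 7.53 at 24 h, and 7.51, 7.47 and 7.55 at 48 h. miR-298 had 7.91, 7.42 and 7.37 at 12 h, 7.32, 7.38 and 7.17 at 24 h, and 7.27, 7.30 and 7.48 at 48 h. For miR-298, replicate 1 at 12 h stood apart from the other sham arrays, and at 24 h the direction was opposite to that of miR-153. limma's F test over the sham times called 0 of 680 names (0%), with 45 at an unadjusted p under 0.05.

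Between 12 h and 24 h after sham laparotomy the members' differences ran from -0.28 for miR-298 to 0.15 for miR-153, with a median of 0.01 beside -0.03 over all names. limma's calls numbered 0 of 680 (0%), beside 61 names whose unadjusted p was under 0.05. Between 24 h and 48 h the differences ran from -0.13 to 0.06, with a median of -0.06 beside 0.00, and limma's calls numbered 0 of 680 (0%), beside 16 names whose unadjusted p was under 0.05. The median standard error of a sham difference was 0.105. No sham group of 0 h was analysed here, so the hepatectomy difference between 24 h and 0 h has no sham counterpart.

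The change from 12 h to 48 h was compared between operations, which cancels a fixed offset between the chip layouts. Hepatectomy minus sham, it ran from -0.39 for miR-153 to 0.41 for miR-489, with a median of -0.11 beside 0.00 over all names. limma called 0 of 376 shared names (0%), with 11 at an unadjusted p under 0.05. The median standard error was 0.235. Levels of hepatectomy and sham liver were not set against each other directly, because operation and layout cannot be told apart.

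Genes near the members were measured as well. Of 6 genomic partners listed, 3 were on the chip. miR-764, which shares the Htr2c locus with miR-448, differed by 0.49 between 24 h and 0 h (limma adjusted p = 0.074), miR-653, the neighbour of miR-489, by 0.21 (0.509) and miR-296, the neighbour of miR-298, by -0.25 (0.475). None of the 3 was called. Of 11 miRNAs listed for the X chromosome cluster of miR-883 and miR-878, 9 were measured. Among these, 7 had positive differences and 1, miR-743b (0.58, limma adjusted p = 0.0376), rose. Over all 388 names, 231 had positive differences and 11 were called higher. The median of the 9 was 0.18 beside 0.07 over all names, below both miR-883 and miR-878. miR-465 (-0.26) and miR-880 (-0.14) had negative values in the same cluster.

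Markers of cell types that express some of the 7 were set beside them. Of 8 neural and endocrine miRNAs, 7 were measured and 0 were called at 24 h. Their median difference was -0.03, from -0.23 for miR-375, a miRNA of pancreatic islets, to 0.39 for miR-128, a neuronal one. Their mean log2 levels ran from 7.27 to 8.28, around the median of the chip. The 3 measured hepatocyte miRNAs, miR-122, miR-192 and miR-194, had differences of -1.41, -0.65 and -0.85 (limma adjusted p 0.105 to 0.26). These were opposite in sign to the members and not called. Signal span, meaning how far an array's bright names reach above its middle, was 1.69, 0.85 and 0.78 at 24 h. At 0 h it was 1.88, 1.46 and 2.34. Replicates 2 and 3 at 24 h had spans below every 0 h array. Their miR-122 excess over the constant was 2457 and 1008.5, against 11339 on replicate 1. The part of signal span in the hepatocyte differences was not tested. Of 4 measured leukocyte miRNAs, miR-142-5p rose (0.49, limma adjusted p = 0.042) and the median was -0.22, while 4 muscle miRNAs had a median of -0.19 and 0 calls. The part of any cell type in the members' values was not tested.

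Names of like level were looked at for comparison. In the members' range of mean log2 level (7.76 to 8.46) there were 120 other names, of which 72 had positive differences between 24 h and 0 h (231 of all 388 did), with a median of 0.11, from -1.12 to 0.75. limma called 2 of them higher and 7 lower. The members' median of 0.67 lay above that of the names of like level, as their choice requires.

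Correlations between members varied widely. Over the 15 hepatectomy arrays of other times, the median Pearson r between pairs of members was 0.519, from -0.27 to 0.83. The median was 0.292 among the 120 names of like level and 0.006 over all pairs of names. These arrays share hybridization, background class and normalization, and the values are a description. Over all 21 arrays, which include the 0 h and 24 h arrays that chose the members, miR-298 had the lowest r with the mean of the other 6, at 0.296.

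The names whose pattern over the 21 arrays was most like the members' mean were miR-322 (Pearson r 0.889), let-7i* (0.851), miR-130b (0.828), miR-759 (0.825) and miR-217 (0.808). Their log2 differences between 24 h and 0 h were 0.58, 0.77, 0.63, 0.75 and 0.49. The 21 arrays include the 0 h and 24 h arrays that chose the members. The ranking therefore makes positive differences likely, and nothing is read from them. The mean levels of these names, 8.22 to 8.73, were in or just above the members' range. miR-322 stood closest. let-7i* is the passenger strand of a let-7 hairpin.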

How the data were processed

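Male Wistar rat liver was profiled on 1-colour febit chips, which label each captured miRNA by enzymatic elongation with biotin (per the labels' protocols). The authors deposited raw spot intensity for 21 hepatectomy and 9 sham arrays in separate layouts, a background-subtracted intensity (the median raw spot less a constant of that array, found by setting the deposited tables against each other) and processed values on a log2 scale for 323 names. The image software and the basis of these constants were not given in the sources used here. For 4 columns the raw and processed tables exchange replicate letters inside a group. Numbers here follow the raw tables.

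Raw intensities were corrected with normexp (offset 50), log2 transformed, quantile normalized and averaged over the spots of a name with limma 3.58.1 in R 4.3.3. Missing spots, 0.585% and 0.811% of the tables, were left out. Fits (lmFit, eBayes) covered 388 hepatectomy names, 680 sham names and 376 shared names, with spots averaged before normalization in the joint fit. P values are two-sided limma values adjusted by Benjamini-Hochberg over all names of a comparison, with a threshold of 0.05. The fits were tested on simulated data. The number of arrays limits the precision.

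The members and lists were chosen with earlier results of these data known. The text names the members, the 4 other rises on each side of the threshold, the 5 names most alike in Pearson r of median-centred levels, and the listed relatives, neighbours and markers. Percentiles and spot shares come from raw intensity. Replicate numbers were not used to pair the arrays. Of 63 same-numbered hepatectomy pairs, 32 had deviations correlated above 0.1 (r -0.77 to 0.78), and of 9 sham pairs, 5. The median r of same-numbered pairs was 0.15 for hepatectomy and 0.216 for sham. For other pairs it was -0.128 and -0.067. Whether the numbers mark a pairing was not settled. Alternatives were other normalizations, background corrections and spot summaries, a filter on dim probes (a median spot at least 20% above the constant on 3 arrays), bright arrays only, array weights, signal span as a covariate, a replicate block and leaving out each array. Where the authors' background-subtracted values were used, those under 1 were set to 1 before the log2 transform. Sequences and positions are from RefSeq, GRCr8.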

Additional observations from a re-analysis of the deposited data

How the results depend on the processing

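No member's difference between 24 h and 0 h changed sign under any setting, and the signs of the other called names were not compared between settings. For 24 h against 0 h, 30 names were called as reported (11 higher, 19 lower). The count was 19 (5 higher) with median centring, 15 (1 higher) with 75th percentile centring, 0 with no normalization (44 at an unadjusted p under 0.05 in limma), 6 (1 higher) with the authors' background-subtracted values, over 323 names, 18 (1 higher) on the bright arrays, 92 (46 higher) with array weights and 103 (57 higher) with signal span as a covariate. Leaving out each array gave 12 to 30: 18 without replicate 1 and 13 without replicate 3 at 0 h, 12 without replicate 1 and 19 without replicate 2 at 24 h.

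Comparisons that called 0 names called 20 (F test of the unused times), 10 (12 h) and 13 (48 h) with array weights, whose fit did not fully converge, none of them members. Leaving out single arrays gave 0 to 1 at 12 h and at 48 h. A replicate block, which the main fits did not use, gave 2 in the sham F test and 3 between sham 12 and 24 h. None of them were members, and no other count changed by over 1.5 times. The members' median difference was above 0 under all alternatives tried at 12 h (0.04 to 0.39), including single arrays left out. At 5 d it was below 0 on the bright arrays alone (-0.14). It took both signs at 48 h (-0.06 to 0.23), between sham 12 and 24 h (-0.19 to 0.34) and in the change from 12 to 48 h (-0.39 to 0.37). Between sham 24 and 48 h it ran from -1.09, with the authors' background-subtracted values set to at least 1, to 0.01, without replicate 2 at 48 h. With the array's 75th percentile in place of its median, 13.7% of members' spots exceeded it at 0 h and 48.9% at 24 h. The causes were not tested.

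Spots within an array spread about as widely as the members' excess over the constant at 0 h, so a single spot there does not resolve that excess. A level averages over the spots of a name, and its error within an array was not estimated. The 3 arrays per group limit every difference.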

Other observations

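The sham chips carried star-strand probes for 6 of the 7 miRNAs (all but miR-878), which the hepatectomy chips did not. Of all spots on a sham array, 48.51% to 70.91% exceeded the constant, and the array median stood 0 to 64 above it, so exceeding the constant sets no name apart. The median spot of rno-miR-883* exceeded the constant on 8 of 9 sham arrays and the array median on 7 of 9, with 71.1% of its spots above the constant. rno-miR-448* exceeded the constant on 7 of 9 arrays and the array median on 4. rno-miR-298* exceeded the constant on 7 arrays and the array median on 2. rno-miR-32*, rno-miR-153* and rno-miR-489* exceeded the constant on 6, 5 and 5 arrays and the array median on none of the 9. The median excess of these last 3 over the constant was 16, 8 and 8 intensity units.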
